A study of Mus musculus with 6 samples.

Results

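The genes described here encode 9 enzymes that break down the aromatic amino acids in the liver, and they were taken by symbol from a deposited table of 54600 genes. Tat, Hpd, Hgd, Gstz1 and Fah degrade tyrosine, which is also the product of phenylalanine, and Tdo2, Kmo, Kynu and Haao degrade tryptophan. Each symbol matched 1 row of the table. Liver RNA was sequenced after 16 weeks of high-fat feeding, with 3 libraries labelled wild type (WT) and 3 labelled as a knockout of HIF-2α restricted to hepatocytes (KO). HIF-2α is an oxygen-regulated transcription factor. All 6 libraries share the diet, and no library from another diet was analysed here. The labels name neither the Cre driver, the strain, the sex nor the age, and they do not say that each library is a separate animal, so p-values measure the spread between these libraries, which may be technical. The comparison asks how liver expression on this diet differed between the genotype labels. Expression is in TPM, a measure of relative abundance per transcript length with the same sum in each library. Levels of different genes can therefore be compared, but sequencing depth is unknown.

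Hepatocytes are the main site of aromatic amino acid breakdown. TAT removes the amino group of tyrosine, HPD forms homogentisate, HGD opens the ring, GSTZ1 isomerises the product and FAH splits it into fumarate and acetoacetate. Tryptophan is opened by TDO2 to formylkynurenine, and after kynurenine is formed KMO, KYNU and HAAO lead to the precursor from which quinolinate and NAD are made. Tat and Tdo2 are classic glucocorticoid-inducible liver genes, and inherited loss of FAH, HPD or HGD causes tyrosinaemia or alkaptonuria in people.

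Because HIF-2α binds DNA at a short core, written ACGTG or GCGTG, the start regions of the 9 genes were searched for it. RefSeq windows (GRCm38.p6, the assembly of mm10) run from 250 bases before to 50 bases after an annotated start, and 8 of the 9 genes matched. Kynu had no entry. RefSeq starts can differ from the ends of the GENCODE genes given with each gene. For 4 of the 8 genes, the bases just after the RefSeq start were found near the start of the longest GENCODE coding transcript. The Fah, Tdo2, Haao and Kmo windows lie inside the GENCODE genes, as does a second Gstz1 window that starts at 87157353. These windows may not be the starts used in liver. Of these 8 genes, 4 held a core on either strand, and of all 32851 windows of this length 43.8% did. The 4 windows are printed because they hold that core, with its letters in capitals, 5′ to 3′ on the gene's strand.
Tat, chr8:109990186-109990485, plus strand: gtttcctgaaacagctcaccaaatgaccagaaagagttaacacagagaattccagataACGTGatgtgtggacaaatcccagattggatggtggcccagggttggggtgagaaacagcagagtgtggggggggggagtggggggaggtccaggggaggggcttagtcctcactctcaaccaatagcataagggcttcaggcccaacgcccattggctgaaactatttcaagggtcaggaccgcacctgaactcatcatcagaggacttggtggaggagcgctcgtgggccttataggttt
Fah, chr7:84605893-84606192, minus strand: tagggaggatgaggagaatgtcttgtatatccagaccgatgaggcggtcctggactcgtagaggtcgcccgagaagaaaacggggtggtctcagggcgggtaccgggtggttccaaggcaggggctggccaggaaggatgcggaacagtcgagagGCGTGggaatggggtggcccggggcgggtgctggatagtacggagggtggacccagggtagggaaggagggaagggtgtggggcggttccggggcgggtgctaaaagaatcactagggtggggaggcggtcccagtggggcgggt
Tdo2, chr3:81975679-81975978, minus strand: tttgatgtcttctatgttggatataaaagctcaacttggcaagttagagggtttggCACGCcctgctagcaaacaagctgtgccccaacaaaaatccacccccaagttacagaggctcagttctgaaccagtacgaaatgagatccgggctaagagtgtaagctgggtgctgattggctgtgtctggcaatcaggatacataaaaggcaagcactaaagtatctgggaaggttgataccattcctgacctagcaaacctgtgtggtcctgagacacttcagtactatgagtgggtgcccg
Haao, chr17:83846741-83847040, minus strand: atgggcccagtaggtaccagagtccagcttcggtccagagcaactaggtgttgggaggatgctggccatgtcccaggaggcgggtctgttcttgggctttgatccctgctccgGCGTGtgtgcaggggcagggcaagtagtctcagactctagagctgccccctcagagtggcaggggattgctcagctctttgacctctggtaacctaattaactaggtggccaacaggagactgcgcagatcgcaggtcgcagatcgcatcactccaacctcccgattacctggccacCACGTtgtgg
Counted from the RefSeq start, the Tat window held ACGTG at position -192 and the Fah window GCGTG at -95. The Tdo2 window held the reverse complement of GCGTG at -194. Haao held GCGTG at -137 and the reverse complement of ACGTG at 41, within the transcribed part. ACGTG alone was in 19.6% of all windows and GCGTG in 32.4%. The clock E-box CACGTG, which contains ACGTG, was in none of the 8 genes' windows and in 7.15% of all.

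Other promoter letters were searched in the same windows on both strands. CCAAT was in the windows of Tat, Hgd, Gstz1 and Tdo2 and in 37.4% of all windows, and the Tat window held it at positions -168, -72 and -40. TATAAA was in those of Hgd and Tdo2 and in 13.6% of all. These matches describe letters in a short window and do not show binding.

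The targeted gene was not lower under the KO label: Epas1, which encodes HIF-2α, ranged from 21.01 to 26.0 TPM over the WT label and from 26.6 to 35.1 over the KO label (limma, log2 difference +0.34, standard error 0.15, adjusted p = 0.993). Gene-level TPM of all liver cells cannot show the loss of single exons, but every direction below is between labels that this gene goes against. KO replicate 3 correlated with no other library above 0.965 (Spearman), while each of the others reached at least 0.971 with some library. All 8 hepatocyte markers were tested and summed to between 56769 and 66753 TPM under the WT label and between 65234 and 81235 under the KO label. In the same order, the 8 macrophage markers summed to 151.6 to 214.7 TPM under the WT label and to at most 203.8 under the KO label, within the WT range, the 4 endothelial markers to 76.9 to 83.4 and 77.9 to 86.8, and the 5 stellate cell markers to 7.72 to 9.18 and 9.47 to 11.1. The 5 cholangiocyte markers, with Krt19 and Krt7 below 1 TPM throughout, summed to 24.9 to 35.3 and 34.9 to 56.2 TPM, most of it Spp1, and the 5 lymphoid markers to 0.684 to 2.61 and 1.02 to 2.31. Kidney, which also expresses kynurenine enzymes, contributed next to no marker RNA, with Kap and Slc12a1 listed at 0 in every library and a sum of at most 0.050 TPM. Of the pancreas and muscle markers, Prss2, Cpa1 and Ckm were listed at 0 throughout, while Cela1 was at 54.5 to 87.8 TPM. Acta1, skeletal muscle actin, was at 1.30, 0.446 and 1.76 TPM under the WT label and was listed at 0, 0.048 and 0 under the KO label. These values did not overlap, and KO lay wholly below WT in 0.857% of tested genes. Acta1 did not pass the filter, and its part in any result was not tested. The stellate sums did not overlap either. Acta2 of that list lay wholly above under the KO label, as in 8.23% of tested genes (limma unadjusted p = 0.0284, adjusted p = 0.993). So did Col1a1, which did not pass the filter, at 0.708, 0.860 and 0.572 TPM against 1.434, 0.928 and 1.135. The labels overlapped for Lrat, Des and Pdgfrb. In bulk tissue, fewer cells of a type and less RNA per cell cannot be told apart.

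Summed TPM of the 9 genes came to 0.471% to 0.639% of all TPM. The order of their mean levels over the 6 libraries was Hpd, Tdo2, Tat, Gstz1, Hgd, Fah, Haao, Kmo and Kynu. Hpd averaged 1566 TPM and ranked between the 63rd and 75th of all genes in each library, while Kynu averaged 94.2 TPM and ranked between the 736th and 1158th. Hpd lay above Tdo2 in all 6 libraries with no overlap of their ranges. The ranges of Tdo2 and Tat, and of Tat and Gstz1, overlapped, and the higher of each pair led in 5 of 6 libraries. Gstz1 and Hgd did not overlap. Hgd was above Fah in all 6 libraries and Fah above Haao in 5, but their ranges overlapped. The range of Haao, 282.0 to 422 TPM, contained that of Fah and overlapped that of Hgd. Kmo and Kynu overlapped none of the other genes. The tryptophan genes thus spanned from 1051 TPM for Tdo2, which opens the pathway, to 151 for Kmo and 94.2 for Kynu, with Haao at 338.

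**Figure D1:**
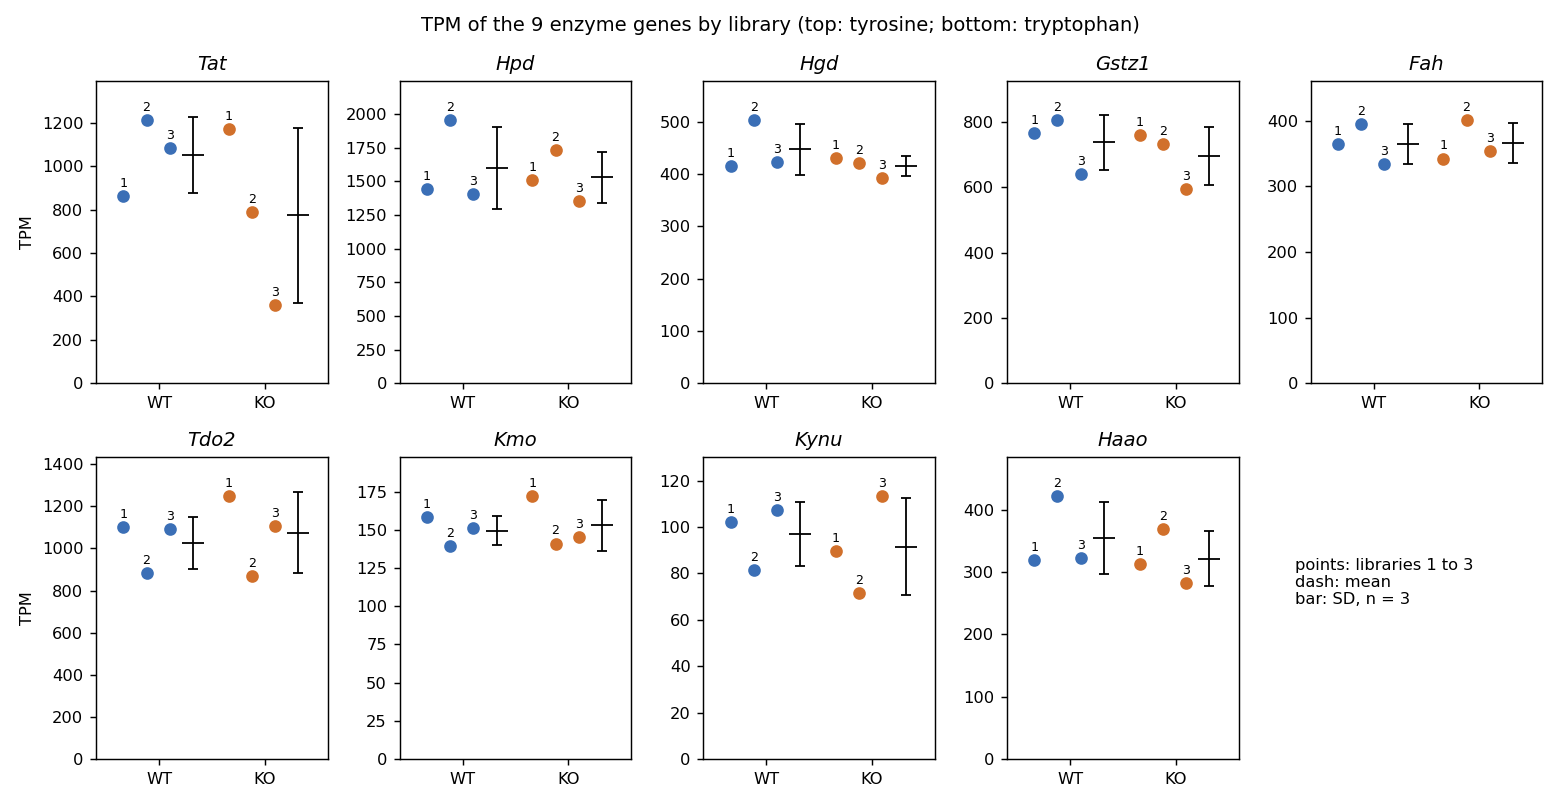
TPM of the 9 enzyme genes in each library, with the linear axis starting at 0, points for libraries 1 to 3 of each label, a dash for the mean and a bar for the SD (n = 3). Tat spans 362.6 to 1211 TPM with its lowest point in KO replicate 3, and in every panel the points of the labels overlap.

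None of the 9 genes differed between the labels beyond the spread of the libraries. Called genes numbered 0 of 9 in limma at an adjusted p below 0.05, beside 0.00874% of the 11440 genes tested, and 0 of 9 had an unadjusted p below 0.05, beside 3.15% of all (2.76% higher and 0.385% lower under the KO label). With same-numbered libraries paired by a replicate block, limma called 0 of 11440 genes and had 602 higher and 105 lower genes at an unadjusted p below 0.05 (6.18% of all), still with 0 of these 9 among them. The labels overlapped for all 9, and they did not overlap for 9.08% of tested genes. With 9 genes these shares cannot be told apart. All 9 passed the filter of 1 TPM in at least 3 libraries, in every library. The exact two-sided permutation test over the 6 libraries gave p of 0.30 for Tat and of at least 0.50 for the other 8 genes, where 3 libraries against 3 cannot go below 0.10.

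Tat encodes tyrosine aminotransferase, the first and controlled step of tyrosine breakdown, and lies on mm10 chromosome 8 from 109990437 to 109999803, plus strand, with 12 exons in its longest coding transcript. Under the WT label Tat had 864, 1211 and 1083 TPM, and under the KO label 1171, 789 and 362.6 TPM. KO replicate 1 was within the WT range, KO replicate 2 just under it, and KO replicate 3 far below every other library. Mean Tat TPM was 1053 ± 175.5 for WT and 774 ± 404.5 for KO (SD, n = 3 per label). The difference was -0.59 on the log2(TPM + 1) scale, with a 95% interval from -1.52 to +0.35 (limma adjusted p = 0.993, unadjusted p = 0.182). Single libraries moved it: it was -0.12 without KO replicate 3 and -0.96 without KO replicate 1. The adjusted limma p without that library was 0.998 (unadjusted 0.0281). Tat had the widest spread of the 9 genes, with a highest value 3.34 times the lowest, against 1.20 to 1.58 times for the other 8.

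Hpd, whose product 4-hydroxyphenylpyruvate dioxygenase is the target of the drug nitisinone, lies on chromosome 5 from 123171807 to 123182727, minus strand. Hpd was at 1440.0, 1953 and 1408 TPM under the WT label and at 1509, 1732 and 1354.5 TPM under the KO label. The highest value of each label was that of replicate 2, and the difference was -0.05 with an interval from -0.48 to +0.37.

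Hgd, homogentisate dioxygenase (chromosome 16, 37580153 to 37632020, plus strand), had 415.5, 502 and 422.5 TPM against 431, 422 and 393. Only WT replicate 2 stood above the others, and the difference was -0.10 (interval -0.41 to +0.21). Gstz1, maleylacetoacetate isomerase (chromosome 12, 87147165 to 87164723, plus strand), had 765.5, 805 and 642.5 TPM against 762, 734 and 594. Replicate 3 was lowest under both labels, with a difference of -0.08 (-0.45 to +0.29). Fah, the final enzyme, fumarylacetoacetate hydrolase (chromosome 7, 84585159 to 84606722, minus strand), was the steadiest at 364, 394 and 334 TPM against 342.5, 400.5 and 354. Its means were 364 ± 30.4 and 366 ± 30.7 TPM (SD, n = 3 each) and its difference +0.01 (-0.30 to +0.31).

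Tat was set against the enzymes that follow it in each library. The ratio of its TPM to that of Hpd, which multiplying a library by a factor cannot alter, was 0.600, 0.620 and 0.769 under the WT label and 0.776, 0.455 and 0.268 under the KO label. Tat made up 22.4%, 24.9% and 27.8% of the summed TPM of the 5 tyrosine genes under the WT label and 27.8%, 19.3% and 11.9% under the KO label. KO replicate 1 therefore had as high a Tat share as WT replicate 3. Without Tat, the other 4 genes summed to 3149 ± 447 and 3009 ± 298 TPM (SD, n = 3 each).

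**Figure D2:**
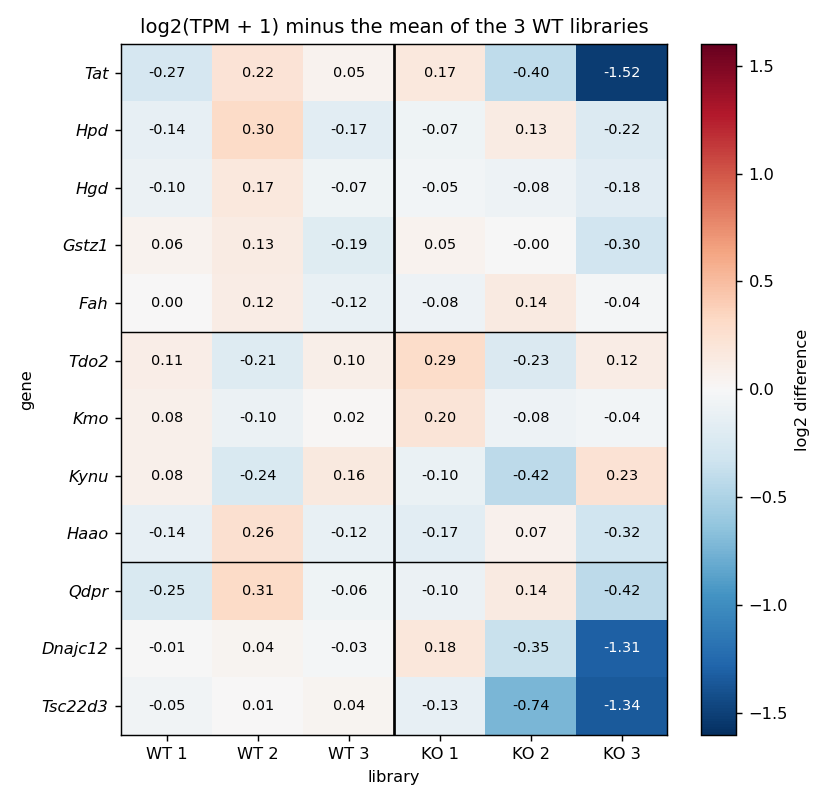
Each cell gives log2(TPM + 1) of a gene (rows) in a library (columns) minus the mean of the 3 libraries labelled WT. Rows are the 5 tyrosine genes, the 4 tryptophan genes and, below the second line, Qdpr, Dnajc12 and Tsc22d3. The deep cells of KO replicate 3 are Tat at -1.52, Dnajc12 at -1.31 and Tsc22d3 at -1.34.

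Of the tryptophan genes, Tdo2 encodes tryptophan 2,3-dioxygenase (chromosome 3, 81957090 to 81976202, minus strand). Under the WT label its TPM were 1102, 882 and 1094, and under the KO label 1249, 870.2 and 1107. Replicate 2 was lowest under both labels. The difference was +0.06 with an interval from -0.36 to +0.48. KO replicate 3, the lowest for Tat, was the second highest library for Tdo2. Kmo, kynurenine 3-monooxygenase (chromosome 1, 175620381 to 175662116, plus strand), had 158, 139 and 151 TPM against 172, 141.0 and 145. Its difference was +0.03 (-0.28 to +0.33).

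Kynu, kynureninase (chromosome 2, 43555329 to 43682715, plus strand), had 102, 81.3 and 107.5 TPM under the WT label and 89.6, 71.5 and 113.3 under the KO label. Replicate 2 was again lowest under both, and the difference was -0.10 (-0.56 to +0.36). Haao, 3-hydroxyanthranilate dioxygenase (chromosome 17, 83831156 to 83847963, minus strand), was at 320.0, 422 and 323 TPM against 313, 370 and 282. In contrast to Kynu, replicate 2 was highest under both labels, and the difference was -0.14 (-0.53 to +0.25). The 4 genes summed to 1627 ± 88.8 TPM under the WT label and 1641 ± 185 TPM under the KO label (SD, n = 3 each).

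**Figure D3:**
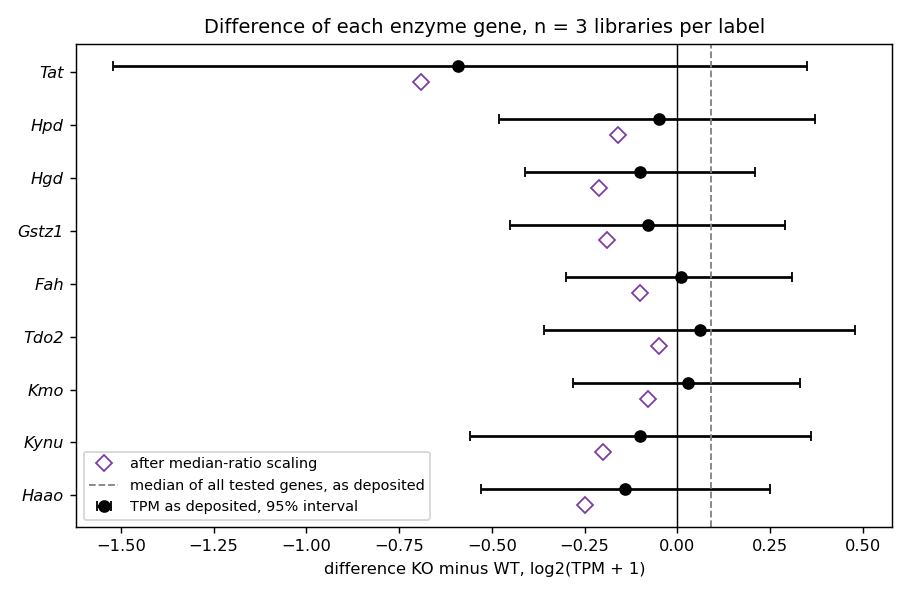
Difference of each gene between the labels (KO minus WT, log2(TPM + 1), n = 3 libraries each), with the 95% limma interval as black bars and the difference after median-ratio scaling as open diamonds. Every interval includes 0, and the dashed line marks the median of all tested genes at +0.09.

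The signs of the small differences of Tdo2, Kmo and Fah depended on how libraries were scaled. As deposited, 6 of 9 genes were below 0, beside 25.5% of all tested genes, and their median was -0.08 beside +0.09 for all. Median-ratio scaling, which sets the typical gene equal between libraries, put all 9 below 0, beside 49.5% of all genes, with a median of -0.19 beside 0.00. Tdo2, Kmo and Fah turned from above to below 0 under it, to -0.05, -0.08 and -0.10, and Tat went to -0.69. None of the 9 passed the threshold under that scaling either (0 of 9 also at an unadjusted limma p below 0.05).

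In 6 of the 9 genes both libraries numbered 2 stood at one end of the 6 values. Hpd, Fah and Haao were higher in both libraries numbered 2 than in the other 4, which held for 12.9% of tested genes, and Tdo2, Kmo and Kynu were lower in both, which held for 6.32%. The summed tyrosine genes were 3.19 and 2.81 times the summed tryptophan genes in WT and KO replicate 2, and between 1.86 and 2.32 times in the other libraries. KO replicate 3 was the lowest library for Tat, Hpd, Hgd, Gstz1 and Haao, 5 of 9 genes, beside 20.3% of all tested genes. These patterns were picked out after the values were seen. The labels do not say what the numbers stand for.

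Genes of like pattern were found by the root-mean-square difference between standardised profiles over the 6 libraries, among 6662 named genes with a mean of at least 5 TPM. Nearest to the mean profile of the tyrosine genes were Vac14 (0.109), which encodes a scaffold of phosphoinositide synthesis, Gsta3 (0.125), a glutathione transferase gene, and Pde3b (0.130), which encodes a cyclic nucleotide phosphodiesterase. Gsta3 was at 1768, 2856 and 1552 TPM under the WT label and 1774, 2233 and 1104 under the KO label, high in replicate 2 and low in replicate 3 of each. Nearest to the mean tryptophan profile were Slc39a9 (0.180), a zinc transporter gene, Hars2 (0.210), a mitochondrial histidyl-tRNA synthetase gene, and Lrrc59 (0.223).

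The rest of the pathway was described from lists of 32 other genes, of which 28 were tested. None was called in limma. At an unadjusted p below 0.05 there were 0, beside 3.15% of all genes, and 1, Nadsyn1, with the replicate block, beside 6.18%. In direction, 14 lay above 0 and 14 below, where 25.5% of all tested genes lay below. Their median was +0.01 beside +0.09 for all genes (-0.10 beside 0.00 after median-ratio scaling). Qdpr, which regenerates the cofactor tetrahydrobiopterin, was at 339, 500.4 and 385 against 376, 445 and 301.5 TPM, highest in replicate 2 of both labels like Hpd.

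Among the 9 genes of the tetrahydrobiopterin group, the smallest p was that of Dnajc12, a co-chaperone gene. Dnajc12 was at 7.37, 7.65 and 7.22 TPM against 8.54, 5.58 and 2.39 (limma unadjusted p = 0.189), the same order within the KO label as Tat. Gch1, the first enzyme of cofactor synthesis, was at 52.3 ± 11.5 and 59.7 ± 11.7 TPM, and Pcbd2 at 30.9 ± 6.47 and 34.2 ± 2.51 (SD, n = 3 each). Of 5 other tyrosine genes, 3 were tested. Got1 and Got2, aspartate aminotransferases that also accept aromatic substrates, were at 167 ± 51.3 and 168 ± 10.7 TPM and at 227 ± 19.8 and 234 ± 42.1. Ddc, aromatic amino acid decarboxylase, was at 29.4 ± 6.14 and 26.0 ± 13.1.

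Of 12 other genes of the kynurenine and NAD branches, 11 were tested. Ido1, the interferon-inducible enzyme that opens tryptophan outside the liver, was listed at 0 in all 6 libraries, while its relative Ido2 was at 47.1 ± 4.04 and 46.5 ± 5.21 TPM. Nadsyn1, NAD synthetase, was the 1 gene of this list whose labels did not overlap, at 5.37, 6.37 and 5.77 TPM against 7.88, 8.73 and 6.44 (limma unadjusted p = 0.0520, adjusted p = 0.993). With the replicate block its unadjusted p was 0.0408 and its adjusted p 0.724. All KO libraries lay above all WT libraries in 8.23% of all genes. Kyat1, a kynurenine aminotransferase gene, was at 43.7 ± 9.11 and 49.2 ± 6.76 TPM. Acmsd, which diverts the pathway away from NAD, ranged from 4.83 to 21.2 TPM within the WT label and from 7.76 to 13.4 within the KO label. Gcdh, glutaryl-CoA dehydrogenase, was at 298 ± 45.0 and 293 ± 52.9 TPM.

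Of 6 transporter genes for aromatic and large neutral amino acids, 5 were tested. Slc16a10, the aromatic amino acid transporter TAT1, was the highest at 23.7 ± 0.835 and 23.8 ± 3.54 TPM. Slc43a2 was at 2.05 ± 0.362 and 2.67 ± 0.308, Slc43a1 at 3.79 ± 1.47 and 4.75 ± 1.91, and Slc7a8 at 1.75 ± 0.550 and 2.05 ± 0.308 (SD, n = 3 each). These differences were within the spread between libraries.

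**Figure D4:**
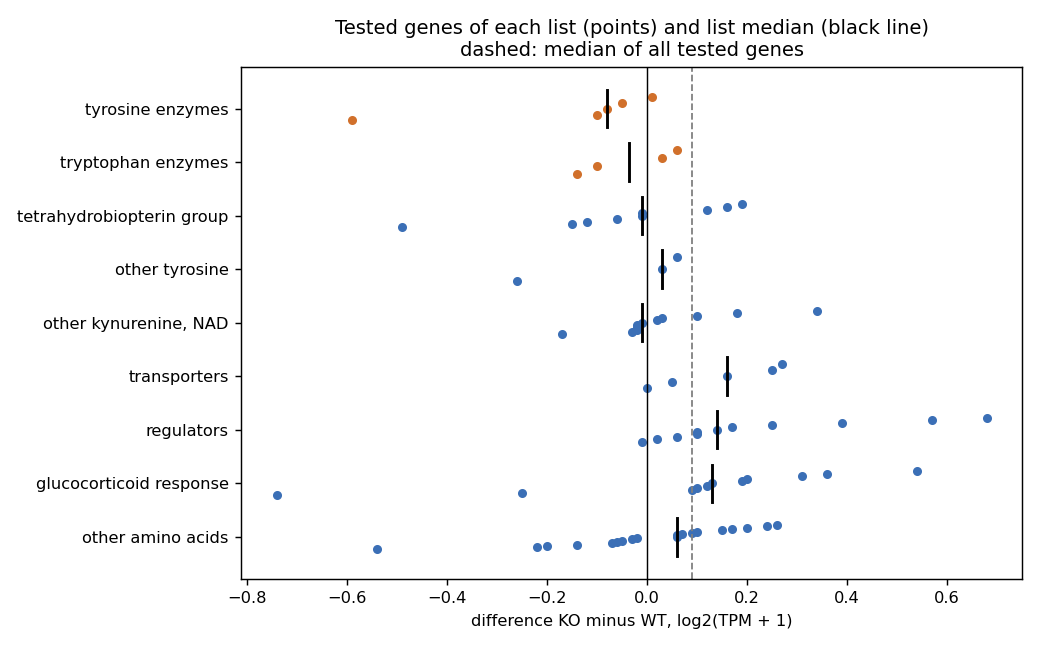
Difference KO minus WT on the log2(TPM + 1) scale for each tested gene (points) of 9 lists, with the list median as a black line and the median of all tested genes, +0.09, dashed. The points farthest left are Tsc22d3 at -0.74, Tat at -0.59, Oat at -0.54 and Dnajc12 at -0.49, and Foxa2 lies farthest right at +0.68.

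Regulators of these genes and other glucocorticoid-responsive genes were set beside Tat. Among 11 regulators none was called. At an unadjusted limma p below 0.05 there were 0, beside 3.15% of all genes, and 1, Foxa2, with the replicate block, beside 6.18%. Of these regulators 10 lay above 0 and 1 below, where 25.5% of all tested genes lay below. Their median was +0.14 beside +0.09 for all genes (+0.04 beside 0.00 after median-ratio scaling). Foxa2, a pioneer factor of liver genes, was at 7.91, 15.6 and 11.7 TPM under the WT label and 10.9, 20.8 and 28.9 under the KO label, and KO replicate 3 was the highest of the 6. Its adjusted limma p was 0.993, and 0.724 with the block (unadjusted 0.0991 and 0.0149). The same library was highest for Foxa1 (13.2 TPM, against 5.88 to 7.88 in the others) and Foxa3 (41.8 against 20.4 to 24.4). The share of all tested genes highest in KO replicate 3 is not given here or below. Whether this trait is particular to the genes named therefore cannot be told. Hsd11b1, which regenerates active glucocorticoid in the liver, was at 542 ± 123 and 603 ± 93.4 TPM.

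Among 11 glucocorticoid-responsive genes, 9 lay above 0 and 2 below, where 25.5% of all tested genes lay below. Their median was +0.13 beside +0.09 for all genes (+0.03 beside 0.00 after median-ratio scaling). None was called and 1 had an unadjusted limma p below 0.05, beside 3.15% of all genes. That gene was Tsc22d3, which encodes the glucocorticoid-induced leucine zipper, with 108, 113 and 116 TPM under the WT label and 102, 67.0 and 43.8 under the KO label (unadjusted p = 0.0315, adjusted p = 0.993). All 3 KO values lay below all 3 WT values, as in 0.857% of tested genes, although KO replicate 1 was close to the WT range. Fkbp5, another target of the glucocorticoid receptor, was at 4.79, 7.06 and 8.49 TPM against 6.50, 11.9 and 13.2, highest in KO replicate 3. With the replicate block its unadjusted limma p was 0.00479 and its adjusted p 0.724. Errfi1 was at 498 ± 4.18 and 574 ± 105 TPM, with every KO value above every WT value, as in 8.23% of tested genes. Pck1, the gluconeogenic enzyme gene, was at 908 ± 83.5 and 986.5 ± 111.

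Of 19 genes that break down other amino acids, none was called and 1 had an unadjusted limma p below 0.05, beside 3.15% of all genes. It was Oat, ornithine aminotransferase, at 538, 655 and 555 TPM under the WT label and 447, 382.5 and 368 under the KO label, with KO below WT in every library, as in 0.857% of all genes (unadjusted p = 0.00617, adjusted p = 0.993). With the replicate block the count at an unadjusted p below 0.05 was 3 of 19, beside 6.18% of all genes, with Hal and Amdhd1 added, and still none called. These histidine genes Hal and Amdhd1 were at 117 ± 17.0 and 134 ± 14.2 TPM and at 85.1 ± 13.6 and 102 ± 19.2. The median of the 19 genes was +0.06 beside +0.09 for all genes, and -0.05 beside 0.00 after median-ratio scaling.

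How reads were assigned could affect a few of these values. In GENCODE M21 (mm10), Gstz1 shares 465 of its 5088 exon bases with Pomt2 and 156 with Gm6566, both on the opposite strand. Pomt2 was at 4.01 to 4.78 TPM and Gm6566 at 0.36 to 1.10, and the sources used here do not say whether counting used strand. Hpd, Hgd and Kmo overlap other genes, Psmd9 and Gm26745, Gm46559 and Fh1, but share no exon base with them. No other transcript matched 7 of the 9 genes over at least 100 bases at 90% identity or more. Kmo matched 18 other genes over 110 to 175 bases at no more than 92.3% identity. Gstz1 matched Pomt2, the overlapping gene named above, over 127 bases at 100% identity.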

How the data were processed

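Liver RNA was sequenced in 6 libraries. The authors deposited 1 table of TPM values for 54600 genes, each library summing to 1000000. The submitters' processing notes name mm10 and the tools HISAT2, featureCounts, fastp, limma and DESeq2, without version, role or order. TPM keeps no depth, so no count model or counting interval was used.

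Of 54323 Ensembl identifiers, 51492 matched a GENCODE M21 name. A minimum of 1 TPM in 3 or more libraries left 11440 genes. Their log2(TPM + 1) values were fitted in limma 3.58.1 (R 4.3.3), allowing the variance to follow the mean, with two-sided tests, and genes were called at a Benjamini-Hochberg adjusted p below 0.05 over all of them. This scale understates changes of low genes. The step was tested on simulated data. Exact permutation tests were run over libraries. Transcripts were matched with BLAST 2.17.0.

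The genes and lists were chosen with earlier results of these data known. Named genes are the 9 enzymes, Epas1, the 3 smallest p-values and the highest level of each list, and 3 genes of like pattern per branch. Qdpr, Ido1, Ido2, overlapping genes, markers and those of the closing section fall outside this rule and were chosen after their values were seen. A few genes that the rule or lists hold are not reported here.

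Libraries shared at most 0.157% of exact values, so no column was a copy of another. Each library was counted as 1 replicate, although this share cannot show that the libraries are separate animals. Deviations of same-numbered libraries from their label means were correlated at 0.16, 0.41 and 0.38, and those of other pairs at -0.37 to 0.03. Deviations cancel out within a label, so positive values of same-numbered pairs push those of other pairs down. The lower values are therefore no separate evidence of pairing. With every same-numbered pair above 0.1, the numbers were treated as a possible pairing. This comes from the data, since the labels do not say what a number marks. All intervals printed come from the unpaired fit, and the replicate block was an alternative to it. Other alternatives were pseudocounts of 0.1 and 5, no filter or 5 TPM, 3 scalings, no variance trend and leaving out each library. The block with median-ratio scaling was added after seeing the data.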

Additional observations from a re-analysis of the deposited data

How the results depend on the processing

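None of the 9 genes, and none of the 73 genes of the other 7 lists, was called under any of the 16 alternatives. An unadjusted limma p below 0.05 arose for Tat without KO replicate 1 (0.0281) and for Haao in the replicate block with median-ratio scaling (0.0471). Of 144 recomputed differences, 123 kept their sign, including all of Tat (-0.96 to -0.12), Hgd (-0.21 to -0.01) and Haao (-0.25 to -0.01), and 21 turned. Median-ratio scaling, alone or with the replicate block, turned Fah (-0.101), Tdo2 (-0.048) and Kmo (-0.080). Quantile normalization turned Fah (-0.095) and Kmo (-0.050). TPM without the most abundant and mitochondrial genes turned Fah (-0.061), Tdo2 (-0.008) and Kmo (-0.039). Leaving out single libraries gave ranges across 0 for Hpd (-0.146 to 0.098), Gstz1 (-0.180 to 0.026), Fah (-0.061 to 0.065), Tdo2 (-0.056 to 0.204), Kmo (-0.060 to 0.082) and Kynu (-0.263 to 0.066). The cause was not tested.

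The replicate block, which pairs same-numbered libraries, left each difference as it was (Tat -0.585) and changed no call of the list genes. Its standard errors were smaller for all 9 genes, at 0.37 against 0.40 for Tat and 0.08 against 0.17 for Haao. The smallest adjusted limma p of the 9 genes over all alternatives was 0.724. Among all genes tested, 1 was called, and 0 with the block (alone or with median-ratio scaling), a pseudocount of 5, no filter, a filter of 5 TPM or quantile normalization. Without single libraries 0 to 2 were called, the 2 without WT replicate 2. Depth is unknown, and 3 libraries per label limit the precision. The intervals given are those of the unpaired fit and ignore any pairing.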

Other observations

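Core clock genes, a list added after the data were seen, varied between libraries of one label. Per3, a period gene of the clock, had 2.36, 5.89 and 1.44 TPM under the WT label and 2.77, 9.17 and 1.02 under the KO label, and the repressor gene Cry1 was at 2.39, 10.4 and 2.06 and at 3.72, 5.53 and 3.33. Both were higher in both libraries numbered 2 than in the other 4, which held for 3 of the 12 clock genes and for 12.9% of all genes tested. The reverse held for 3 others, beside 6.32% of all genes: Clock had 4.75 and 4.32 TPM in the libraries numbered 2 and 5.85 to 8.45 in the others, and Nr1d1 5.22 and 10.7 against 19.8 to 24.6. The remaining one, Npas2, was too low to be tested. Dbp, a clock output factor, was at 43.5, 24.9 and 13.0 TPM and at 63.2, 67.9 and 14.5, and Arntl, a core activator, was highest in KO replicate 3 (4.72 TPM, against 1.10 to 3.02 in the others), the library with the lowest Tat. Of the 11 clock genes tested in limma, 0 were called and 1, Per2, had an unadjusted p below 0.05 (0.0136), beside 3.15% of all genes. The part of these differences in the enzyme genes was not tested.

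The genes nearest to Tat itself in standardised profile were Zfp966 (root-mean-square difference 0.179), Palld (0.181), which encodes an actin-associated protein, and Dnajc12 (0.207). Palld was at 13.3, 16.4 and 14.8 TPM under the WT label and 15.5, 11.8 and 9.08 under the KO label. Dnajc12 also stands in the tetrahydrobiopterin group described above, and Tat and Dnajc12 were both lowest in KO replicate 3. The search for Tat was added after its values were seen. Onecut1, a liver transcription factor gene, was at 30.5 TPM in KO replicate 3 and between 4.27 and 9.60 in the others.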
